A study of Mus musculus with 4 samples.

Results

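The 10 genes described here encode cyclin-dependent kinases (Cdk6, Cdk4, Cdk2, Cdk11b, Cdk12, Cdk13 and Cdk9) and cyclins (Ccnd2, Ccnd3 and Ccnt1). A peak was taken as a member's when its summit, the base of highest signal, lay inside the gene as annotated in GENCODE M21 on the mouse build GRCm38. Of 19866 peaks in 3 lists, 69 met this rule, and they lay in 6 of the 10 genes. The genes are 10 of 21951 annotated protein-coding genes. Cdk6 and Cdk11b were chosen by the strength and number of their peaks in these same lists, so their counts and heights are a description and are not tested.

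RNA bound to IGF2BP2, YTHDF2 or YTHDC1 was immunoprecipitated from mouse bone marrow, lin- c-Kit+ fraction (LIC in the labels), with 1 library per protein and 1 input library. All 4 groups came from cells grown with IL3, IL6 and SCF and were crosslinked with UV light of 254 nm at 120 mJ per cm2, given 3 times. The labels used here give no strain, genotype, age or treatment, and do not say whether animals were pooled. No separate input track was analysed here. Kit, the receptor that defines the sorted fraction, had 0 peaks in the IGF2BP2 and YTHDF2 lists and 1 in the YTHDC1 list (fold 4.91). Peaks report bound RNA and not expression, so the cell label was not checked further. A single library stands for each protein, so readers cannot be compared against replicate error. Sequencing depth is unknown, and intervals cover counting error only.

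N6-methyladenosine (m6A) is a methyl mark on RNA that reader proteins recognise. Of the readers, IGF2BP2 is known to stabilise mRNA in the cytoplasm, YTHDF2 to promote mRNA decay, and YTHDC1 to act in the nucleus. CDK4 and CDK6 pair with D-type cyclins to phosphorylate the retinoblastoma protein in G1, and CDK2 acts with cyclins E and A at the entry to and through S phase. CDK9 with cyclin T1 forms P-TEFb, which releases paused RNA polymerase II. CDK12 and CDK13 with cyclin K act on elongating polymerase, and CDK11 kinases with L-type cyclins are tied to splicing. CDK6 is well known for its part in blood cell progenitors and leukaemia.

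The sequences under the strongest exonic peaks differed in composition between members, and most of those of Cdk11b were rich in A and G. The lines below give the exonic bases within 50 nt of a summit, from the GENCODE M21 transcripts on GRCm38. They are written 5′ to 3′ on the strand of the gene (minus for Cdk13 and plus for the others), and capitals mark the longest uninterrupted stretch of A and G. The summit is that of IGF2BP2, except for Cdk13, where it is that of YTHDC1. Cdk11b exon 8 held the exonic peak of highest fold of each reader among the members, and Cdk6 and Cdk13 are shown for contrast. The printed Cdk13 window had the lowest share of A and G of all member windows (30.7%) and a local background of 217.3 times the floor. It marks the low end and is not a typical member window. Exons 3, 4, 5, 9 and 10 are other Cdk11b exons with IGF2BP2 peaks, and their printed bases held 65.8% (exon 10) to 82.7% (exon 5) of A and G. Their full spliced windows of 50 nt on either side, which run past the exon ends, held 64.4% (exon 10) to 75.2% (exon 3). The spliced IGF2BP2 windows of exons 2, 6 and 18, not printed, held 66.3%, 65.3% and 55.4%.
Cdk11b exon 8 (chr4:155639826-155639926): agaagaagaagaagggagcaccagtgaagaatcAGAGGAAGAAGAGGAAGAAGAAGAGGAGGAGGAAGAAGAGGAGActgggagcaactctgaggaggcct
Cdk11b exon 3 (chr4:155628759-155628823): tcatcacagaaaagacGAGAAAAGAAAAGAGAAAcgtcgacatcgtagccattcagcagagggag
Cdk11b exon 4 (chr4:155630194-155630261): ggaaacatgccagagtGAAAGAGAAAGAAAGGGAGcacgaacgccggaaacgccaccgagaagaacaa
Cdk11b exon 5 (chr4:155634145-155634225): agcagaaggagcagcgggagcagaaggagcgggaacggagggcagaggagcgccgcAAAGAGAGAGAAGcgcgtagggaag
Cdk11b exon 9 (chr4:155640747-155640799): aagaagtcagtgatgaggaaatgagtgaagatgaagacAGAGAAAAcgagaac
Cdk11b exon 10 (chr4:155641515-155641590): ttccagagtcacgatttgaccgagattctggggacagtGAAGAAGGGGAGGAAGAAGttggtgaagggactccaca
Cdk6 exon 2 (chr5:3344450-3344550): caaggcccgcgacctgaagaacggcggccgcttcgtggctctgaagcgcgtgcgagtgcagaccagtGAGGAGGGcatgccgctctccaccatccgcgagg
Cdk13 exon 1 (chr13:17804458-17804558): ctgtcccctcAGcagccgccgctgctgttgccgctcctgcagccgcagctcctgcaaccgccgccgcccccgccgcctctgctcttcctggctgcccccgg

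The stretch in Cdk11b exon 8 was 44 nt long and was built from repeats of gaa and gag. It lay in the windows of all 3 readers, whose summits there were 9 bp apart at most. Whether reads there also map elsewhere was not tested.

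IGF2BP2 had 23 of its 7069 peaks in member genes, YTHDF2 had 15 of 2834 and YTHDC1 had 31 of 9963. For IGF2BP2, 5 of the 10 members had a peak, against 12.6% of all protein-coding genes. YTHDF2 had a peak in 3 members, against 7.14% of all protein-coding genes, and YTHDC1 in 6 members, against 19.6%. Since members were picked with these lists in view, nothing is read from these shares. Cdk6 and Cdk11b together held 20, 13 and 20 of the peaks of IGF2BP2, YTHDF2 and YTHDC1. Cdk4, Cdk2, Ccnd2 and Ccnt1 had 0 peaks in each list. Without a measure of expression, a gene with no peak cannot be told apart from one with little RNA.

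**Figure D1:**
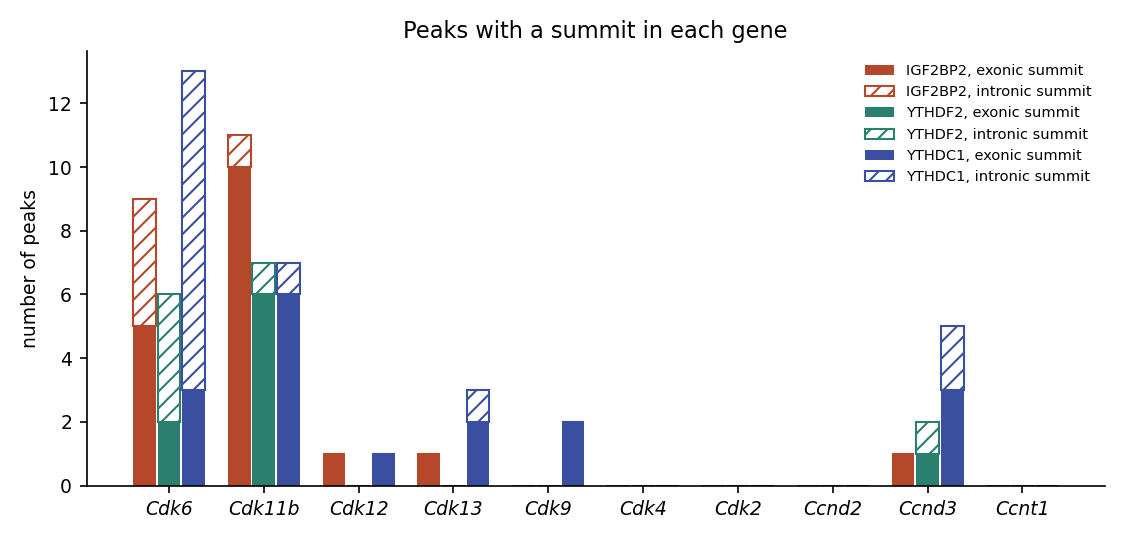
Number of peaks with a summit in each of the 10 genes (vertical axis), by reader, with exonic summits filled and intronic summits hatched. Cdk6 has 9, 6 and 13 peaks and Cdk11b has 11, 7 and 7 (IGF2BP2, YTHDF2, YTHDC1), while 4 genes have none.

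Peaks of Cdk11b lay almost entirely in coding exons, whereas those of Cdk6 lay mostly in introns. Over all members, 18 of 23 IGF2BP2 summits were exonic (78.3%), against 70.8% of that reader's peaks in protein-coding genes. For YTHDF2 the members had 9 of 15 exonic summits (60.0%), against 75.4%, and for YTHDC1 17 of 31 (54.8%), against 55.5%. In Cdk11b, 22 of 25 summits were exonic, and in Cdk6 10 of 28. Annotated exons cover 15.0% of the Cdk11b gene and 7.38% of the 189524 bp of Cdk6.

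Cdk11b (ENSMUSG00000029062.14, GRCm38 chr4:155624854-155649938, plus strand) encodes a kinase of the CDK11 group. It carried peaks over most of its 5′ coding exons, with all 3 readers at 6 places. Its strongest peak in each list lay in the CDS of exon 8 of 19, at chr4:155639510-155640027 in the IGF2BP2 list. There the IGF2BP2 list gave a pileup, the authors' height at the summit, of 66, the YTHDF2 list 24 and the YTHDC1 list 46. The fold, the authors' ratio, taken here as pileup plus 1 over local background plus 1, was 59.7, 22.8 and 40.4 in the same order. The −log10 q values were 149.6, 45.3 and 91.0. By the highest fold of a gene, Cdk11b ranked 7 of 2765 genes with an IGF2BP2 peak, 20 of 1568 with a YTHDF2 peak and 55 of 4298 with a YTHDC1 peak.

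**Figure D2:**
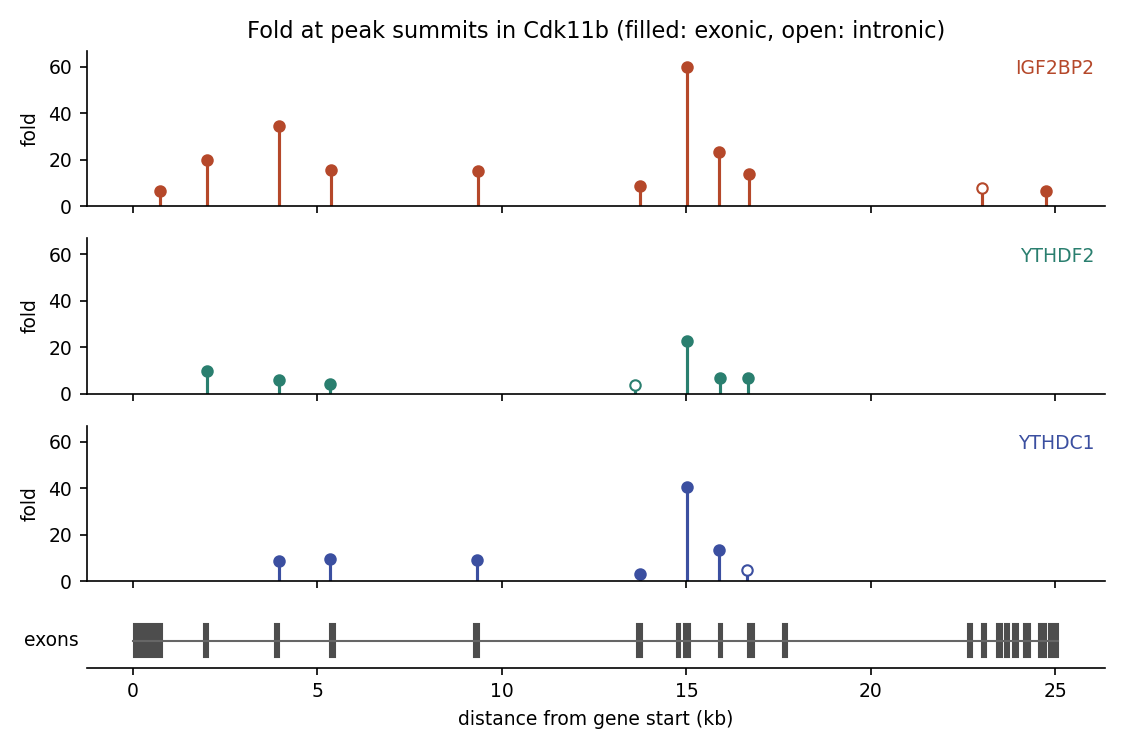
Fold at each peak summit (vertical axis) against distance from the start of Cdk11b in kb (horizontal axis), 1 panel per reader, with the exons below. The highest point of each reader stands at the same exon, 15.0 kb from the gene start, and most others stand upstream of 16.7 kb.

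The other Cdk11b exons held lower peaks, and their order differed between readers. In exon 3 IGF2BP2 had a pileup of 34, YTHDF2 of 5 and YTHDC1 of 8. In exon 9 it was 23, 6 and 13, and in exon 4 it was 15, 3 and 9. IGF2BP2 thus had its next highest Cdk11b peak in exon 3, YTHDF2 in exon 2 (pileup 9) and YTHDC1 in exon 9. IGF2BP2 alone had peaks in exon 1 (pileup 6), in intron 12 (7) and in exon 18 (7).

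Relative to exon 8, exon 3 of Cdk11b had a higher point value in the IGF2BP2 list than in the others, with overlapping intervals. Its pileup made up 34.0% of the sum of both for IGF2BP2 (exact binomial 95% interval 24.8 to 44.2), 17.2% for YTHDF2 (5.85 to 35.8) and 14.8% for YTHDC1 (6.62 to 27.1). The intervals hold if 1 unit of pileup is 1 fragment, which the sources do not state. All libraries had 20 PCR cycles, and the part of PCR copies in the pileups was not tested. The pair of exons was picked after the heights were seen.

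Cdk11b summits crowded into the 5′ part of the coding sequence, which is 2355 nt long. Of 22 summits in exons, 21 lay in the first 50% of the coding sequence, the last of them 1106 nt after the start codon. The exception was the IGF2BP2 peak in exon 18, whose summit lay 100 nt before the stop codon. The 3 intronic summits lay 8, 13 and 60 nt from the nearest exon. The lists give no strand, and 23 of the 25 summits also lay in an intron of Gm10563, a protein-coding gene annotated on the minus strand.

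The readers shared most of their places in Cdk11b. Peaks chained by an overlap of at least 1 bp formed 11 places, of which 6 held all 3 readers, 1 held IGF2BP2 and YTHDC1, 1 held IGF2BP2 and YTHDF2, and 3 held IGF2BP2 alone. No place lacked IGF2BP2. In exon 6 the YTHDF2 summit was the intronic one 60 nt away, and its peak overlapped the YTHDC1 peak but not the IGF2BP2 peak. That YTHDC1 peak was the weakest in a member, with pileup 2, fold 2.92 and −log10 q 2.31.

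Cdk6 (ENSMUSG00000040274.11, GRCm38 chr5:3341485-3531008, plus strand), the G1 kinase, had its strongest peak in each list deep inside intron 4, at chr5:3462477-3462685 in the IGF2BP2 list. IGF2BP2 had a pileup of 38 there, YTHDF2 of 21 and YTHDC1 of 52, and the folds were 38.5, 21.8 and 52.0. The −log10 q was 112.7, 58.6 and 154.8. The summits lay within 23 bp of each other and 10547, 10570 and 10551 nt from the nearest exon. By its highest fold Cdk6 ranked 48 of 2765, 26 of 1568 and 18 of 4298 genes for IGF2BP2, YTHDF2 and YTHDC1.

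**Figure D3:**
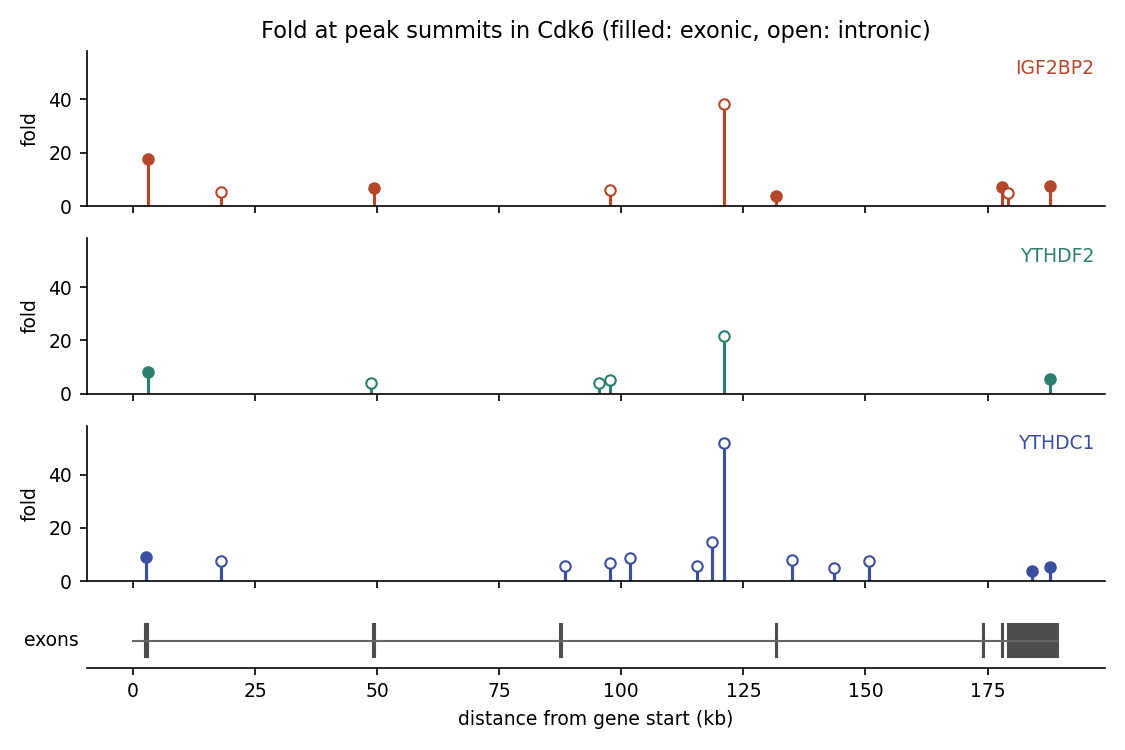
Fold at each peak summit (vertical axis) against distance from the start of Cdk6 in kb (horizontal axis), 1 panel per reader, with the exons below. The highest point of each reader stands 121.1 kb into the gene, between exons, and YTHDC1 has the most open, intronic points.

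The local background at this intronic summit equalled the floor, the smallest background in each list, in all 3 lists. At Cdk11b exon 8 it was also the same multiple of the floor, 8.691, in each list. The 3 lists therefore do not count as independent measures of the background. With backgrounds of 0.014 (IGF2BP2), 0.011 (YTHDF2) and 0.019 (YTHDC1), the folds at the Cdk6 summit were close to the pileup plus 1. Its sequence is not shown because no genome of this build was used here, and repeats at the site were not checked. The order of the readers there differed from that in Cdk11b exon 8, where IGF2BP2 was highest. The Cdk6 pileup made up 36.5% of the sum of both places for IGF2BP2 (exact binomial 95% interval 27.3 to 46.6), 46.7% for YTHDF2 (31.7 to 62.1) and 53.1% for YTHDC1 (42.7 to 63.2). These intervals overlap and carry the same condition on the unit of pileup.

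The exonic signal of Cdk6 was highest in exon 2, which holds the start codon. Its pileups were 25 (IGF2BP2), 10 (YTHDF2) and 43 (YTHDC1), with folds of 17.5, 7.99 and 9.20. The local background was raised there, at 34.8, 33.9 and 199.9 times the floor, and its part in these peaks was not tested. The IGF2BP2 and YTHDF2 summits lay 133 and 123 nt after the start codon in the CDS. The YTHDC1 summit lay in the 5′ UTR, 278 bp upstream of the IGF2BP2 summit.

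Near the 3′ end of Cdk6, all 3 readers had a low peak in the 3′ UTR of exon 8 with summits within 3 bp. The IGF2BP2 pileup was 7 and the YTHDF2 and YTHDC1 pileups were both 5, and folds were 7.43, 5.66 and 5.44. The summits lay 187.7 kb from the gene start, far beyond the stop codon, and 0 Cdk6 summits lay within 200 nt of that codon. IGF2BP2 also had single peaks in exons 3, 5 and 7, with pileups of 6, 3 and 7. The one in exon 5 also lay in an exon of the antisense gene Gm17590.

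Introns held 18 of the 28 Cdk6 summits, at a median of 10549 nt from an exon (7 to 18929 nt). The 3 intronic summits of Cdk11b had a median of 13 nt (8 to 60 nt). Cdk11b spans 25085 bp with 19 exons and Cdk6 189524 bp with 8. The part of intron length in these distances was not tested. YTHDC1 had 10 of the intronic Cdk6 summits, YTHDF2 had 4 and IGF2BP2 had 4, from lists of 9963, 2834 and 7069 peaks. With each list limited to its 2834 best peaks by −log10 q, Cdk6 had 4 YTHDC1, 6 YTHDF2 and 3 IGF2BP2 peaks in all, so the order of the readers depends on list length. The tallest YTHDC1 peak outside the shared places, also in intron 4, had a pileup of 21 and a fold of 14.7, with a background of 26.1 times the floor. Of the 19 places in Cdk6, 4 held all 3 readers, 1 held IGF2BP2 and YTHDC1, 8 held YTHDC1 alone, 4 IGF2BP2 alone and 2 YTHDF2 alone.

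**Figure D4:**
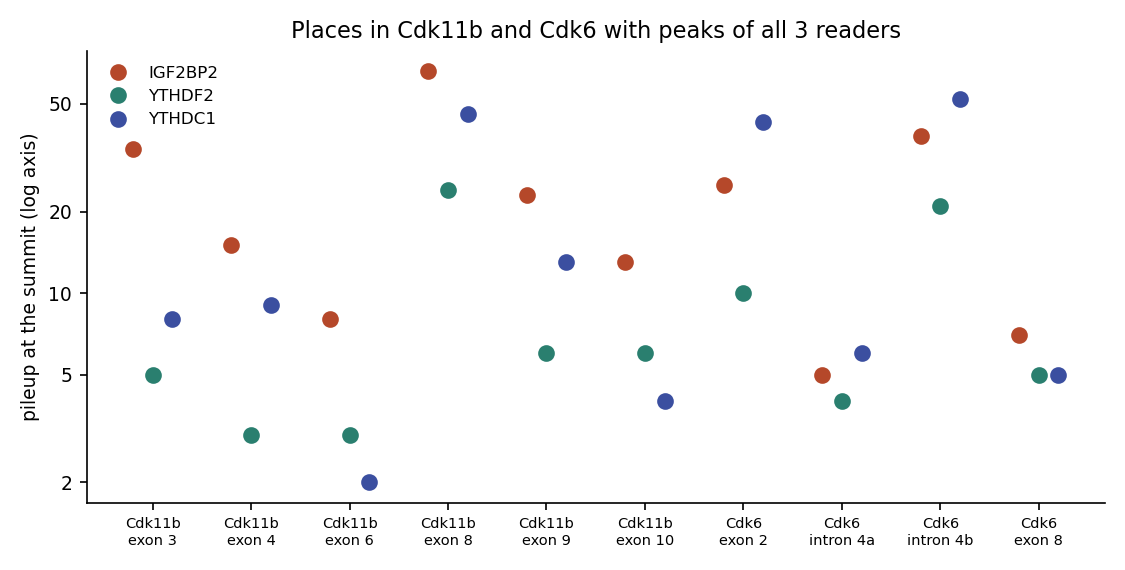
Pileup at the summit (vertical log axis) at the 10 places in Cdk11b and Cdk6 that hold peaks of all 3 readers, with 1 point per reader. IGF2BP2 is highest at all 6 Cdk11b places and at Cdk6 exon 8, and YTHDC1 is highest at the other Cdk6 places; intron 4a and 4b are the weaker and the stronger place in intron 4 of Cdk6.

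IGF2BP2 had the highest pileup at each of the 6 shared Cdk11b places, and YTHDC1 at 3 of the 4 shared Cdk6 places. Since the scaling of the pileup between libraries is not stated, this order cannot be read as stronger binding by one reader. YTHDF2 was lowest at 4 of the 6 Cdk11b places, the others being exons 6 and 10, where YTHDC1 was lowest. At the exon 10 place the YTHDC1 summit lay in intron 9, 13 nt from the exon.

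Among the members with fewer peaks, Cdk13 and Cdk12 had their tallest peaks in exon 1 in the YTHDC1 list. Cdk13, a cyclin K partner (ENSMUSG00000041297.8, GRCm38 chr13:17710315-17805097, minus strand), had 3 YTHDC1 peaks and 1 IGF2BP2 peak. The tallest lay in the CDS of exon 1, with a YTHDC1 pileup of 59, above the 52 of Cdk6 intron 4. Its fold was only 11.7, with a background of 217.3 times the floor. In the 5′ UTR an IGF2BP2 peak (pileup 7, fold 4.93) overlapped a YTHDC1 peak (13, 7.61), both with a background of 44.3 times the floor. A YTHDC1 peak in intron 1 had a pileup of 15 and a fold of 9.65.

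Cdk12, the other cyclin K partner (ENSMUSG00000003119.14, GRCm38 chr11:98203059-98278504, plus strand), had a YTHDC1 peak in the 5′ UTR of exon 1 with a pileup of 18 and a fold of 10.4. The background there was 43.5 times the floor. Its single IGF2BP2 peak, in the CDS of exon 12, had a pileup of 3 and a fold of 3.94. Cdk9, the kinase of P-TEFb (ENSMUSG00000009555.16, GRCm38 chr2:32705784-32713076, minus strand), had YTHDC1 peaks alone, both in exon 7 of 7. Their pileups were 8 and 3 and their folds 6.77 and 3.86, while its partner Ccnt1 had 0 peaks.

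Ccnd3, the D-type cyclin that partners CDK4 and CDK6 (ENSMUSG00000034165.16, GRCm38 chr17:47505051-47599691, plus strand), had 1 IGF2BP2, 2 YTHDF2 and 5 YTHDC1 peaks, with pileups of 3 to 12. YTHDF2 and YTHDC1 shared a place in exon 4, with pileups of 6 and 7 and folds of 6.38 and 6.87. The tallest Ccnd3 peak, of YTHDC1, had a pileup of 12 and a fold of 11.7 and lay in an exon annotated in a transcript other than the longest coding one. The IGF2BP2 peak, in exon 6, had a pileup of 3 and a fold of 3.89. Ccnd2, the related D-type cyclin, and Cdk4 had 0 peaks.

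A raised background, of at least 20 times the floor, stood under 2 of 23 IGF2BP2, 1 of 15 YTHDF2 and 6 of 31 YTHDC1 member peaks. Over all peaks in protein-coding genes, the IGF2BP2 share was 9.29%, the YTHDF2 share 15.8% and the YTHDC1 share 21.2%. These member peaks lay in Cdk6, Cdk12 and Cdk13, and 0 lay in Cdk11b.

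Peaks in members overlapped a peak of another reader in 14 of 23 cases for IGF2BP2 (60.9%), against 46.0% of that reader's peaks in protein-coding genes. For YTHDF2 this held for 12 of 15 (80.0%), against 80.0%, and for YTHDC1 for 14 of 31 (45.2%), against 31.6%. Members were chosen with their peaks known, so these shares are given as a description. Both other readers were overlapped by 9 IGF2BP2, 9 YTHDF2 and 10 YTHDC1 member peaks, all of them in Cdk6 and Cdk11b.

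Most Cdk11b windows held more A and G than the median window of the lists. In Cdk11b 9 of 10 IGF2BP2, 6 of 6 YTHDF2 and 6 of 6 YTHDC1 windows lay above it, and in Cdk6 0 of 5, 1 of 2 and 1 of 3 did. In spliced windows of 50 nt on either side of an exonic summit, the median share of A and G in Cdk11b was 71.8% in both the IGF2BP2 and the YTHDF2 list and 75.7% in the YTHDC1 list. Over all such windows in protein-coding genes the medians were 60.4%, 59.4% and 59.4%. In the windows of all members, Cdk11b included, they were 62.4%, 67.3% and 60.4%. Whether the rest of the Cdk11b coding sequence is as rich in A and G was not tested. The exon 8 windows held 84.2%, 87.1% and 85.1% of A and G, at the 98.7, 98.9 and 98.1 percentile of their lists. In Cdk6 the medians were 50.5%, 57.9% and 49.5%, and the YTHDC1 window in exon 1 of Cdk13 held 30.7%. Windows in 1 gene overlap between readers and are not independent.

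**Figure D5:**
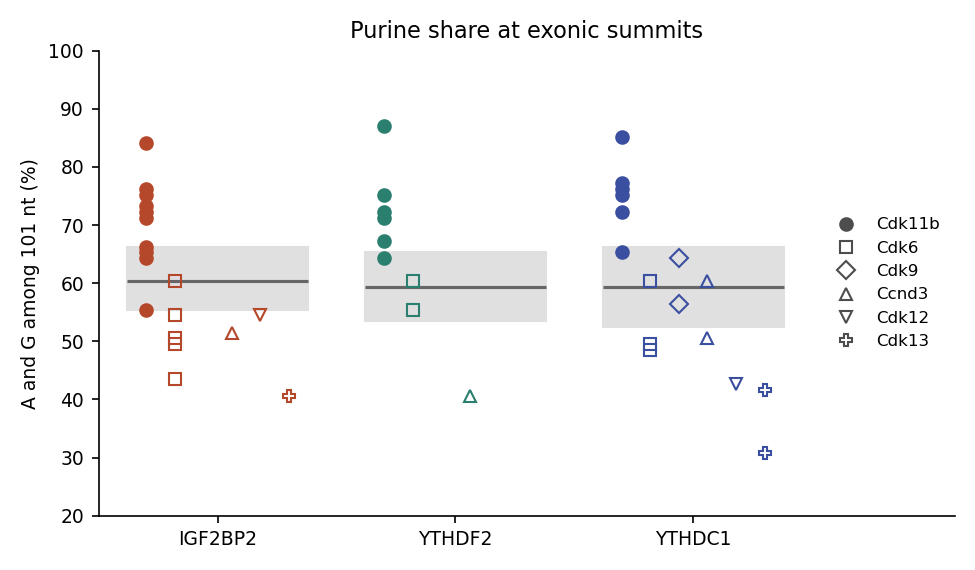
Share of A and G within 50 nt on either side of each exonic summit (vertical axis), by reader, with 1 symbol per gene. The grey band spans the middle 50% of all such windows in protein-coding genes and the line is their median; Cdk11b lies above the band in 6 of 10, 5 of 6 and 5 of 6 windows, and no Cdk6 window does.

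The motif GGAC is a core of the sequence at which m6A is placed, and its count in these few windows, many of which repeat a site across readers, was not tested. It was found on the strand of the gene in 4 of 18 member windows for IGF2BP2, 1 of 9 for YTHDF2 and 4 of 16 for YTHDC1. Over all windows it was found in 42.4%, 41.5% and 42.3%. The motif GGACT was in 3, 0 and 1 member windows, against 10.8%, 11.8% and 12.2% of all windows. In Cdk11b, GGAC was in 2 of 10 IGF2BP2, 1 of 6 YTHDF2 and 0 of 6 YTHDC1 windows, and none of the exon 8 windows held it. A match is a description of the letters and not a mapped m6A site. The lines below show 3 windows with the motif in capitals, clipped to the exon and written 5′ to 3′ on the strand of the gene on GRCm38 (minus for Cdk9).
Cdk11b exon 1, IGF2BP2 (chr4:155625544-155625641): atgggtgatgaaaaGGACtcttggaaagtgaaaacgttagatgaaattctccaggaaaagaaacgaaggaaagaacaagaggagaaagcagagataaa
Cdk6 exon 7, IGF2BP2 (chr5:3519359-3519444): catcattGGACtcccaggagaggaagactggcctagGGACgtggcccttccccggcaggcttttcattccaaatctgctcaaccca
Cdk9 exon 7, YTHDC1 (chr2:32708190-32708289): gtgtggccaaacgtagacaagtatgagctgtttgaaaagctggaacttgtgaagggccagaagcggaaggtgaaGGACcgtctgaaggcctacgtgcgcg

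By highest fold in the 3 lists, the genes nearest to Cdk11b were Hmgb1, a chromatin protein, Ythdc1 itself, and the chaperone gene Hsp90aa1. Hmgb1 had folds of 56.7, 24.8 and 41.9 for IGF2BP2, YTHDF2 and YTHDC1. Nearest to Cdk6 were Baz1a, a chromatin remodelling subunit, Tpm3, a tropomyosin, and Nrros. Baz1a had folds of 43.0, 19.2 and 41.3. Likeness was the largest difference in rank percentile over the 3 lists, taken over 1091 genes with a peak in each, and it was 0.383 percentage points for Hmgb1 and 0.893 for Baz1a.

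No other listed gene of these pathways reached the highest fold of Cdk6 or Cdk11b in any list, but those genes were chosen by the strength of their peaks. IGF2BP2 had a peak in 12 of 67 listed genes, YTHDF2 in 7 and YTHDC1 in 25, and 5 had all 3. Against the 12.6%, 7.14% and 19.6% of all protein-coding genes given above, these were 17.9%, 10.4% and 37.3%. The pathway lists were chosen with earlier results of these data known, so nothing is read from these shares. Among partners and regulators of P-TEFb, 6 of 11 had a YTHDC1 peak. Hexim1, which holds P-TEFb inactive, had the highest folds of that list, at 7.37 for IGF2BP2, 8.52 for YTHDF2 and 23.2 for YTHDC1. Mepce, a partner of the same RNA complex, had a YTHDC1 fold of 15.6.

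Each list below is short, and its counts were not tested against the 12.6% (IGF2BP2), 7.14% (YTHDF2) and 19.6% (YTHDC1) of all protein-coding genes. Among 12 other CDK genes, IGF2BP2 had a peak in 2, YTHDF2 in 2 and YTHDC1 in 4. Cdk8, the Mediator kinase, had folds of 11.2, 18.9 and 9.56. Its paralog Cdk19 had a YTHDC1 peak alone, with a fold of 11.2. Among 18 other cyclins, IGF2BP2 had a peak in 4, YTHDF2 in 0 and YTHDC1 in 5. Ccnl1, an L-type cyclin that partners CDK11, had folds of 7.81 for IGF2BP2 and 15.3 for YTHDC1. Among 7 CDK inhibitors, IGF2BP2 had a peak in 2, YTHDF2 in 1 and YTHDC1 in 4. Cdkn1a, which encodes p21, had folds of 7.33 for YTHDF2 and 7.73 for YTHDC1. Of 11 RB and E2F genes, 4 had a YTHDC1 peak and 0 a peak of another reader, with E2f4 and E2f6 both at a fold of 7.73. Among 8 genes that activate or restrain CDKs, IGF2BP2 had a peak in 1, YTHDF2 in 2 and YTHDC1 in 2. The highest folds were those of Mnat1, a subunit of the CDK-activating kinase, at 5.92, 5.93 and 15.7.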

How the data were processed

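Peaks of 3 immunoprecipitates, 1 library each, were described, and the input had no list of its own among the files used. Reads were processed with HISAT2, Trim Galore and bcl2fastq 2.17 on GRCm38, per the submitters' processing notes. Which peak caller made the lists, whose columns follow MACS2, is not given in the sources used here. The deposited lists give a score, a fold (a ratio), the −log10 p and −log10 q, and, per the file headers, the pileup signal at the summit, whose scaling is not stated. Depth per sample is therefore unknown.

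Summits were assigned with Python 3.11.15 and pandas 2.3.3 to every protein-coding gene of GENCODE M21 under them, exons before introns. UTRs (3′ before 5′) took precedence over CDS, other exons and introns over all transcripts, and exon numbers refer to the longest complete coding transcript. The local background was computed as (pileup + 1) / fold − 1, taking the fold as (pileup + 1) / (background + 1). Scripts were tested on simulated data. Members and pathway lists were chosen with earlier results of these data known. The text names all 10 members, up to 3 genes of each pathway list by highest fold, and the 3 genes nearest to Cdk6 and Cdk11b in rank. Of the genes so chosen, 1 is not reported here. No p-value is given. Alternatives were stricter thresholds, equal list length, peak midpoint, 50% overlap and 1 transcript per gene. The lists give no strand, and pseudogene or paralog reads cannot be traced.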

Additional observations from a re-analysis of the deposited data

How the results depend on the processing

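Of 30 alternative values, 25 stayed within 1.5 times the reported one. With each list limited to its 2834 best peaks by −log10 q, 12 IGF2BP2 member peaks were left of 23, namely 9 in Cdk11b and 3 in Cdk6, so 2 member genes in place of 5 had one. YTHDC1 had 12 of 31 under the same setting, 4 each in Cdk6 and Cdk11b. The YTHDF2 list, the shortest, kept all 15, with 6 in Cdk6 and 7 in Cdk11b. At a fold of at least 5, YTHDF2 had 9 of 15. At a −log10 q of at least 5, 3 members had an IGF2BP2 peak. These settings keep fewer peaks by construction. Exonic counts and overlaps between readers stayed within 1.5 times in every setting run for them. Pileups of 3 or less stood behind 3 IGF2BP2, 5 YTHDF2 and 4 YTHDC1 member peaks. No paired analysis was possible because each reader has a single library.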
